A study of Mus musculus with 6 samples.

Results

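The YTHDC1 LACE-seq peaks of 10 hnRNP genes were described in activated satellite cells and in C2C12 myoblasts. The genes were Hnrnpa1, Hnrnpa2b1, Hnrnpc, Hnrnpd, Hnrnph1, Hnrnpk, Hnrnpl, Hnrnpm, Hnrnpu and Rbmx, which encodes hnRNPG, and they are 10 of 22380 protein-coding genes in the mm9 annotation. The rule names the genes and uses no peak, but it was set with earlier results of these data known. A peak was counted when it lay wholly inside the gene and its deposited reads ran on the strand opposite to the gene. LACE-seq reads are copies of the RNA made by reverse transcription, so that strand is the one on which the gene's own RNA appears, and it is called the RNA strand here.

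YTHDC1 is the nuclear reader of N(6)-methyladenosine (m6A) and is known for roles in splicing and nuclear export of mRNA. LACE-seq crosslinks a protein to its RNAs with UV light, pulls the protein down with an antibody and maps where reverse transcription stops at the crosslink. The hnRNP proteins coat nascent transcripts in the nucleus, where they influence splicing, polyadenylation and export. Many genes of splicing factors, hnRNP genes among them, limit their own output through retained introns or poison exons, which are exons whose inclusion brings a premature stop codon and decay of the mRNA.

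The series held 6 libraries, all made with the same YTHDC1 antibody and all labelled WT. The 4 ASC48 libraries came from satellite cells, the stem cells of skeletal muscle, cultured for 48 hr, and formed biological replicates B1 and B2 with technical replicates T1 and T2 of each. The 2 C2C12 libraries came from an established line of mouse myoblasts in growth medium, from more cells, and are biological replicates by their labels but technical ones by the study's text. The strain and age of the mice behind the ASC48 libraries are not given in the sources used here, and no input or IgG library was analysed here. The muscle genes Myf5, Myod1 and Des, and also Vim, each held peaks in both C2C12 libraries and in at least 1 ASC48 library. For Myf5 the latter was 1 peak, in B2 T1 alone. In Myod1 the C2C12 peaks of replicate 1 and replicate 2 did not overlap.

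The ASC48 lists held 8115 and 10759 peaks for B1 (T1, then T2) and 7925 and 19448 peaks for B2, and the C2C12 lists held 60540 (replicate 1) and 71992 (replicate 2). The height of a peak is its number of reads per 20-nt bin, and the lowest height listed was 4 in ASC48 B2 T2, 5 in the other ASC48 libraries and 6 in both C2C12 libraries. ASC48 B2 T2 thus stood apart from its partners, with the longest ASC48 list and the lowest limit, and it gave 15 of the 20 ASC48 peaks in the hnRNP genes. Sequencing depth is unknown, since the lists hold peaks only. A peak that is missing from a library was not detectable there, which is not the same as unbound RNA, and RNA levels were not measured in these libraries. A shared peak is a peak of C2C12 replicate 1 that overlapped a peak of replicate 2 by at least 1 nt. With 2 C2C12 libraries no test between groups of samples was made, and the 95% intervals below are exact Clopper-Pearson intervals that cover counting error across peaks or genes only.

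The sequences under the highest shared peak of 9 of the genes are shown, the highest being the one with the highest mean height over both C2C12 libraries, or the lower coordinate where means were equal. Each is written 5' to 3' on the RNA strand in DNA letters from mm9, with a 20-nt bin of the peak in capitals and 5 nt on either side in lower case. A peak wider than 20 nt is shown by its first bin in the direction of the RNA.
Hnrnpl intron 6, chr7:29601896-29601925, plus strand: ttgatTTTTTTTTTTCCTGCAGTCAtcggc
Hnrnph1 3' UTR, chr11:50199456-50199485, plus strand: aacagATTTTGCAATCCATCCAGCCttgtg
Hnrnpa2b1 exon 3, chr6:51416956-51416985, minus strand: gaggtTGACGCTGCCATGGCTGCAAggccc
Hnrnpd intron 2, chr5:100402516-100402545, minus strand: agataTGGACTGCCACTTCTTGGCAacttc
Hnrnpu exon 12, chr1:180260336-180260365, minus strand: ccgagGTGGTTACTCAAACAGAGGGaatta
Rbmx exon 9, chrX:54640276-54640305, minus strand: tggagGAAGCCGATCTGATAGAGGGggagg
Hnrnpc intron 1, chr14:52711496-52711525, minus strand: tagtcTTGCTTGTCTTTGTAAACTTacata
Hnrnpm exon 14, chr17:33786996-33787025, minus strand: gccgcACCCATTGACCGTGTGGGCCaaacc
Hnrnpk 3' UTR, chr13:58493636-58493665, minus strand: taggtGTTCTGCATTTGAGGTGTAGtgaaa

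Each of the 10 hnRNP genes held at least 1 C2C12 shared peak, beside 21.8% of all protein-coding genes (10 of 10, interval 69.2% to 100%). Under stricter limits fewer genes kept one. At p of at most 0.0001 in both libraries 5 of 10 did, beside 11.4% of all protein-coding genes, and at 0.00001 it was 3 of 10, beside 6.16%. With at least 10 reads per bin in both it was 4 of 10, beside 6.41%, and with sequences that occur once in the genome 8 of 10, beside 16.7%. At p of at most 0.0001 the genes without a peak were Hnrnpc, Hnrnph1, Hnrnpk, Hnrnpm and Hnrnpu. The genes together held 46 shared peaks, and Hnrnpl alone held 26 of them. Hnrnpm had 4, Hnrnpa1, Hnrnpa2b1 and Hnrnpu had 3 each, Hnrnpc and Hnrnph1 had 2 each, and Hnrnpd, Hnrnpk and Rbmx had 1 each. The median was 2.50 per hnRNP gene, beside 2 over the 4882 protein-coding genes that had a shared peak at all, so Hnrnpl was the member that lay far from the rest. Of these 4882 genes, 67 (Hnrnpl included) had as many shared peaks as Hnrnpl or more.

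**Figure D1:**
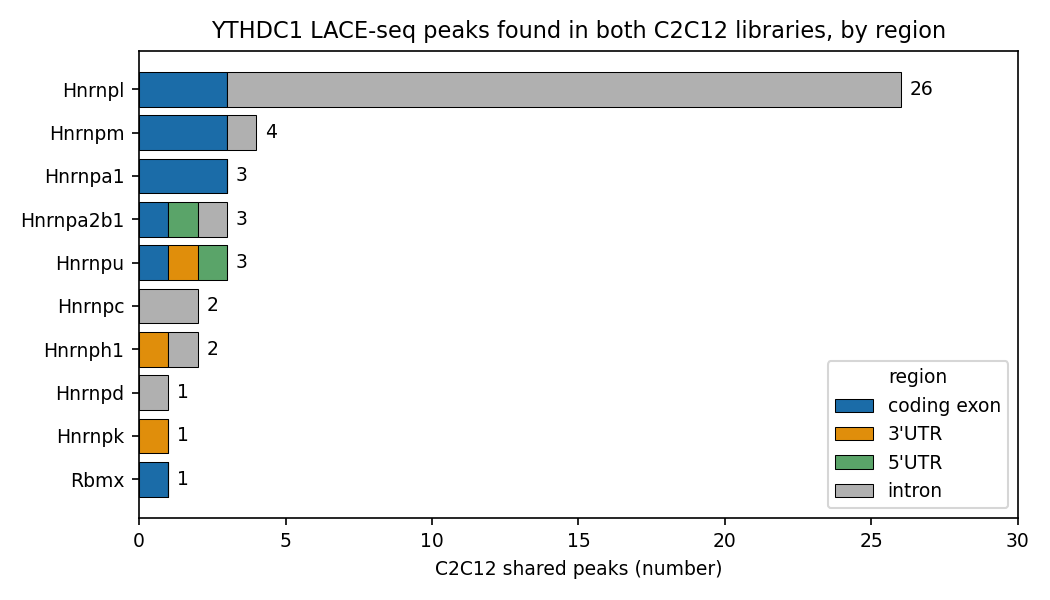
Number of C2C12 shared peaks (horizontal axis) in each of the 10 hnRNP genes (vertical axis), coloured by the region of the gene. Hnrnpl carried 26 peaks, 23 of them in introns, and the other genes carried 1 to 4 each.

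C2C12 replicate 1 listed 80 peaks in the 10 genes and replicate 2 listed 93. Of the 80, 46 were found again in replicate 2, or 57.5% (interval 45.9% to 68.5%), beside 45.5% over peaks in all protein-coding genes. In Hnrnpl 26 of 35 were found again, or 74.3% (interval 56.7% to 87.5%). The other genes had 3 to 9 replicate 1 peaks each. Of their peaks 75% were found again in Hnrnpa1, 60% in Hnrnpu and 33.3% to 44.4% in each of the rest, below the value for all genes. The interval was the same in both libraries for 31 of the 46 shared peaks, and for the others the heights are over different bins. Across the 46 shared peaks the heights in both libraries had a Pearson correlation of 0.618 on the log2 scale and a Spearman correlation of 0.416, beside 0.508 and 0.415 over the 19610 shared peaks of all protein-coding genes. Over the 26 Hnrnpl peaks alone they were 0.641 and 0.526. Without Hnrnpl, over 20 peaks, they were 0.501 and 0.145. The rank correlation was thus lower without Hnrnpl, while the Pearson correlation was near the 0.508 over all protein-coding genes. No interval was computed for these correlations. These correlations are across peaks, which share libraries and, in Hnrnpl, a transcript. The shared peaks were low: 32 of 46 had a mean under 10 reads per bin, and 6 reached a mean of 15 or more, 5 of them in Hnrnpl and 1 in Hnrnpa1. All 46 lay on the RNA strand and 0 on the other, whereas 89.8% of the shared peaks in protein-coding genes lay on the RNA strand.

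**Figure D2:**
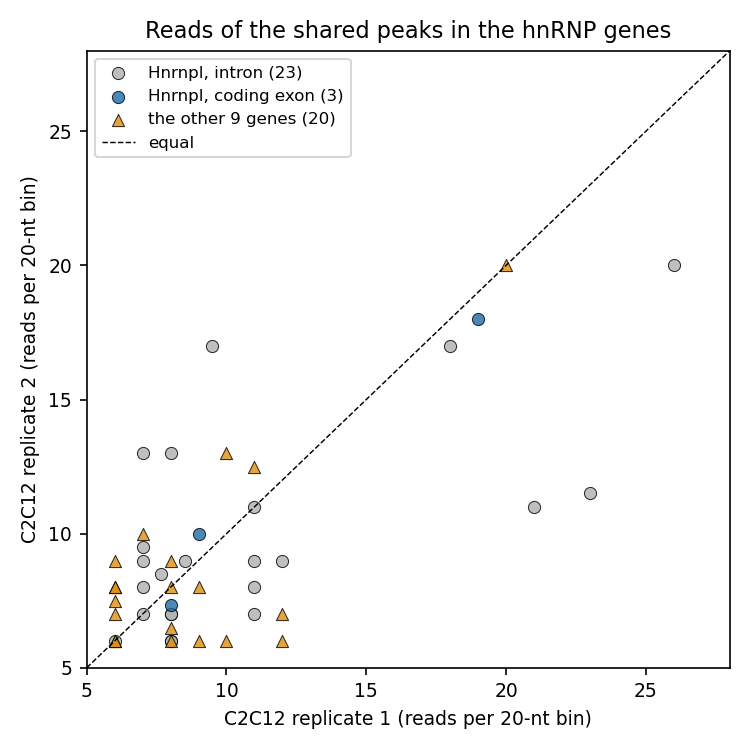
Height of each of the 46 shared peaks in C2C12 replicate 1 (horizontal axis) and replicate 2 (vertical axis), both in reads per 20-nt bin on linear axes, with intronic and coding Hnrnpl peaks and the other 9 genes marked separately and the dashed line marking equal heights; some points lie on top of each other. Most peaks sit between 6 and 13 reads in both libraries, and the few above 15 in both are Hnrnpl peaks and 1 peak of Hnrnpa1.

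By region, 29 of the 46 shared peaks were intronic, or 63.0% (interval 47.5% to 76.8%), and 12 lay in coding exons, or 26.1% (interval 14.3% to 41.1%). Over all protein-coding genes the shares were 34.5% in introns and 42.3% in coding exons. When regions were taken from all transcripts instead of the protein-coding ones, the intronic share of the 10 genes was 23.9%, beside 32.9% over all protein-coding genes, and 17 of the 46 peaks, or 37.0%, lay on exons of other transcripts, beside 1.37%. The intronic share came from Hnrnpl: the other 9 genes had 6 of 20 shared peaks in introns, or 30% (interval 11.9% to 54.3%), and 9 of 20 in coding exons, or 45% (interval 23.1% to 68.5%), both of which hold the value for all genes. Counted by gene, 6 of 10 had a shared peak in a coding exon beside 11.9% of all protein-coding genes, and 6 of 10 had one in an intron beside 10.9%. A shared peak in the 3' UTR was seen in 3 of 10, beside 7.61%, and one in the 5' UTR in 2 of 10, beside 2.56%. These shares by gene do not account for how strongly a gene is transcribed.

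In the single libraries, replicate 1 had 44 intronic peaks, 19 coding ones, 9 of the 5' UTR and 8 of the 3' UTR, and replicate 2 had 50, 30, 4 and 9 of the same kinds. Introns thus held more of the peaks than any other region in both. Hnrnpl alone gave 29 of the intronic peaks in each library, and 6 and 9 of the coding ones. Per length, the 10 genes held 0.530 exonic shared peaks per kb of exon, beside 0.189 over all protein-coding genes, and 0.219 intronic ones per kb of intron, beside 0.00712. Without Hnrnpl these were 0.479 and 0.0494. The 3 other gene lists described below had values of the same order or higher in exons. They were 0.616 for 17 further hnRNP genes, 0.490 for SR splicing factor genes and 1.45 for cytosolic ribosomal protein genes. In introns these lists had 0.0317, 0.125 and 0.260. By gene, the exonic value was 1.06 per kb in Hnrnpl and 0 in Hnrnpc and Hnrnpd, and the value of 2.66 in Hnrnpa1 is over coding exons alone, since its annotation holds no UTR. None of the 46 shared peaks lay inside another annotated gene on the same strand.

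Hnrnpl encodes hnRNP L, which binds CA-rich RNA and regulates alternative exons, and it carried the longest array of peaks among the 10 genes. Its gene spans chr7:29593560-29607285 on the plus strand, and its reference transcript, the one with the longest coding sequence, is Hnrnpl-004 with 12 exons. Intron 6 of that transcript (chr7:29600372-29603479, 3108 nt) held 22 of the 26 shared peaks. Of the other 10 introns, intron 4 held 1 shared peak and the rest held 0, among them intron 1 of 2110 nt and intron 7 of 1228 nt. The intron was singled out after its values were seen.

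Within intron 6, C2C12 replicate 1 listed 28 peaks with 339 reads in them and replicate 2 listed 27 peaks with 309 reads. The 22 shared peaks spanned 2480 nt with a median gap of 80 nt and no gap over 260 nt, so that they followed each other through most of the intron. Their mean heights ran from 6 to 23 reads per bin with a median of 9.25. Of these peaks 12 were higher in replicate 1, 8 in replicate 2 and 2 were equal, with the same interval in both libraries for 14 of the 22. The 4 ASC48 libraries together listed 0 peaks in intron 6.

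The highest peak, at chr7:29601901-29601920, had 26 reads per bin in replicate 1 and 20 in replicate 2 (mean 23 ± 4.24, SD, n = 2). A peak at chr7:29601421-29601440 followed with 18 and 17 reads per bin. The peak at chr7:29601481-29601500 had 23 and 11.5, and the one at chr7:29602021-29602040 had 21 and 11. The 11.5 is an average over a peak of 40 nt, while the 23 is that of a single bin, so these values are not alike in width. The peaks at 26 and 20, 18 and 17, and 21 and 11 have the same interval in both libraries, and each was higher in replicate 1. The sequences of the peaks after the highest one, and of a peak on a small exon inside the intron described next, are given to show that these sites differ in sequence.
Hnrnpl intron 6, chr7:29601416-29601445, plus strand: acactTCAGCGGCTCTGCCTCTGCAcattg
Hnrnpl intron 6, chr7:29601476-29601505, plus strand: gttctTCCTGGAGAACAACATGCAGcctcc
Hnrnpl intron 6, chr7:29602016-29602045, plus strand: gctcaGAGGCACACAGTTACCTGCTggtgg
Hnrnpl exon inside intron 6, chr7:29602356-29602385, plus strand: tcgcaGTGTATGTTTGATGGGACGCcatct

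The annotation places exons of other Hnrnpl transcripts inside intron 6. The retained-intron transcripts Hnrnpl-002 and Hnrnpl-005 keep its upstream part, to position 29601979 and 29601955 of chromosome 7, and 13 of the 22 shared peaks lay there. An exon of 70 nt at chr7:29602354-29602423 is part of Hnrnpl-006, which is classed as a target of nonsense-mediated decay, and of the retained-intron transcript Hnrnpl-010. That exon held 1 shared peak, at chr7:29602361-29602400, with 9.50 reads per bin over 40 nt in replicate 1 and 17 over 20 nt in replicate 2. The retained-intron transcript Hnrnpl-011 covers the downstream end of the intron and held 2. Thus 16 of the 22 shared peaks lay on an exon of another transcript and 6 on no annotated exon.

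**Figure D3:**
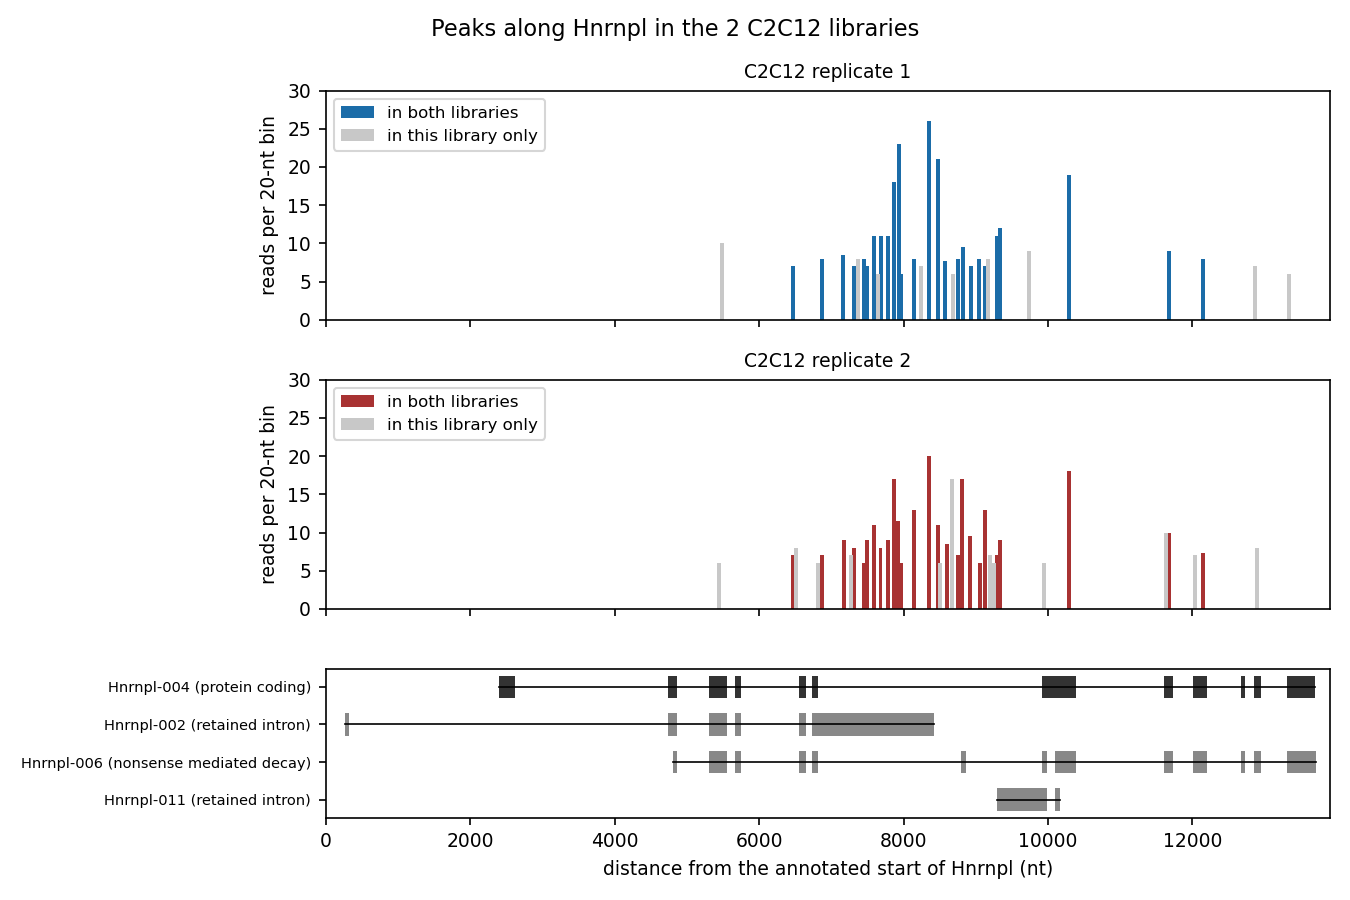
Peaks along Hnrnpl in C2C12 replicate 1 (top) and replicate 2 (middle), as reads per 20-nt bin against distance from the annotated start in nt, with peaks found in both libraries in colour and the others in grey; bars are drawn wider than the peaks. The exons of the reference transcript and of 3 others are drawn below. The 22 shared peaks of intron 6 run through most of the space between its exons 6 and 7. They include peaks over the retained stretch of Hnrnpl-002, the 70-nt exon of Hnrnpl-006 and the start of Hnrnpl-011.

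Over the 10 genes, 18 of the 29 intronic shared peaks lay on an exon of a transcript that is not classed as protein coding, or 62.1% (interval 42.3% to 79.3%), beside 4.62% of the intronic shared peaks of all protein-coding genes. Of these 18, Hnrnpl gave 17 (16 in intron 6 and 1 in intron 4) and Hnrnph1 gave 1. Among 3069 reference introns with a shared peak, 16 (intron 6 of Hnrnpl included) held 22 or more. Per length, intron 6 held 7.08 shared peaks per kb. Among the 1344 introns of 1 to 10 kb with a shared peak, 1 other was as dense, in Slc25a37, with 18 shared peaks in 1756 nt or 10.3 per kb. Introns of H13 (6.46 per kb), Ddx17 (6.19), Ddx5 (5.53) and Sfswap (5.45) came not far below. The one in Ddx17 held 25 shared peaks in 4042 nt.

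Of the Hnrnpl peaks outside introns, 3 were shared and lay in coding exons 7, 8 and 9. The peak in exon 7, chr7:29603841-29603860, had 19 and 18 reads per bin and was the highest exonic one of the gene. Those in exons 8 and 9 had 9 and 10, and 8 and 7.33. The 20-nt sequence of the exon 7 and exon 8 peaks occurs at 2 places in the genome, so some of their reads may come from a copy elsewhere. In intron 6, 20 of the 22 shared peaks have a sequence that occurs once, and the highest peak is not among them, since its sequence occurs at 2 places.

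hnRNP A1 and hnRNP A2/B1, encoded by Hnrnpa1 and Hnrnpa2b1, are abundant nuclear proteins with a pair of RNA recognition motifs that influence splice site choice. Hnrnpa1 held 3 shared peaks, all in coding exons. Those in exons 7 and 9 had 8 and 6, and 6 and 6 reads per bin. A bin of each of these occurs at 9 places in the genome, and Hnrnpa1 is known to have processed pseudogenes, so its heights are uncertain. With sequences that occur once in the genome, Hnrnpa1 had 0 shared peaks.

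The annotated Hnrnpa1 interval (chr15:103070945-103074445) holds no UTR, so that 0 of its 3 shared peaks could be a UTR peak. Downstream of its end, 4 more shared peaks lay on the same strand at 596, 976, 1656 and 1936 nt, with 9 and 12, 6 and 10, 7 and 7, and 10 and 7 reads per bin. No other annotated gene covers that stretch. Within 2 kb upstream of the start of Hnrnpa1 lay 1 more. Copies of these flanking sequences in the genome were not counted. Each of the other 9 genes had 0 shared peaks within 2 kb of its start or end.

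Hnrnpa2b1 held 3 shared peaks in 3 kinds of region. Its exon 3 peak, chr6:51416961-51416980, had 10 and 13 reads per bin, and its sequence occurs at 2 places. A peak in the 5' UTR had 12 and 7, and one in an intron had 12 and 6. In replicate 2 these were averages over peaks of 40 nt and 60 nt, beside peaks of 20 nt in replicate 1. Their heights are thus not alike in width. The exon 3 peak had the same interval in both libraries and was higher in replicate 2.

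hnRNP C binds U-rich RNA of nascent transcripts, and hnRNP D, also called AUF1, binds AU-rich elements of mRNA. Hnrnpc held 2 shared peaks, both in its intron 1 of 19472 nt, with 9 and 6 and with 6 and 9 reads per bin. Hnrnpd held 1 shared peak, in intron 2 at chr5:100402521-100402540, with 8 and 9. The Hnrnpd sequence printed above holds GGACT, a form of the m6A consensus motif, and it was the single shared peak of the 38 single-bin ones in the 10 genes with that word in its window. Both genes thus had their shared peaks in introns, far from the exons: 3012 nt was the shortest distance.

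Hnrnpu encodes hnRNP U, or scaffold attachment factor A, a nuclear protein that binds RNA and chromatin. It held 3 shared peaks, 1 at either end of its transcript and 1 in between. The peak in exon 12, chr1:180260341-180260360, had 7 and 10 reads per bin. The one in the 5' UTR, chr1:180267761-180267820, had 8 in both libraries, and the one in the 3' UTR had 8 and 6.50. C2C12 replicate 1 listed 5 Hnrnpu peaks, 1 of them in a coding exon, and replicate 2 listed 11, of which 7 were in coding exons. Most of the coding peaks were thus seen in 1 library.

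hnRNP H1 binds G-rich RNA, hnRNP K binds C-rich RNA through KH domains, and hnRNP M binds GU-rich RNA. Hnrnph1 held a shared peak in its 3' UTR, chr11:50199461-50199500, with 11 and 12.5 reads per bin, whose sequence occurs at 2 places. It held another in intron 4 (chr11:50193481-50193500), 14 nt past the preceding exon, with 10 and 6. Hnrnpk had 1 shared peak, in the 3' UTR, with 6 reads per bin in both libraries, the lowest height listed, and its sequence occurs at 4 places. The Hnrnpk peak was thus at the limit of the lists.

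Hnrnpm had 4 shared peaks with 6 reads per bin in replicate 1 and 7 to 8 in replicate 2. Of these, 2 lay in exon 14, 1 in exon 8 and 1 in intron 2, 142 nt before the next exon. The peak at exon 8 ran over the annotated 5' splice site into the intron, and its sequence occurs once in the genome:
Hnrnpm exon 8 to intron 8, chr17:33801516-33801545, minus strand: gatgcACGTCAAGATGGTAAGTTACtagga
By their extent in replicate 1, 2 of the 46 shared peaks ran over an annotated splice site, or 4.35% (interval 0.531% to 14.8%), beside 2.20% of the shared peaks in all protein-coding genes. The other one, at Hnrnpa1 exon 7, ran over the splice site in replicate 1 but lay within the exon in replicate 2.

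Rbmx encodes hnRNPG, an RNA-binding protein of the nucleus that takes part in splicing. It held 3 peaks in each C2C12 library and 1 shared peak, in coding exon 9 at chrX:54640281-54640300, with 9 and 8 reads per bin. The sequence of that peak occurs once in the genome. No ASC48 library listed a peak in Rbmx.

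The shared peaks of the 10 genes were searched for short words. The word GGAC was found in the 60-nt window, the bin with 20 nt on either side, of 5 of 38 single-bin peaks, or 13.2% (interval 4.41% to 28.1%), beside 18.8% over all protein-coding genes. GGACT was found in 1 of 38, or 2.63%, beside 5.68%. CACA, a word of the CA-rich kind that hnRNP L binds, was found in 9 of 38, or 23.7% (interval 11.4% to 40.2%), beside 21.7%, and in Hnrnpl in 7 of 21, or 33.3% (interval 14.6% to 57%). The words were searched on the RNA strand, GGACT holds GGAC, and each interval holds the value for all genes. The 20-nt sequence occurred once in the genome for 35 of 46 shared peaks, or 76.1%, beside 77.3%.

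Other genes of RNA-binding proteins were counted in the same way. Of 17 further hnRNP genes, 13 held a shared peak, 46 in all, with 19.6% of them in introns and 41.3% in coding exons. Ptbp1 had the most with 8, followed by Hnrnpa0 with 6, and Hnrnpf, Pcbp1 and Pcbp2 had 5 each. Of 10 SR splicing factor genes, 7 held a shared peak, 26 in all. Of 76 cytosolic ribosomal protein genes, 66 held one, with 32.8% of 198 peaks in introns, and the highest number in one of these genes was 13. In these 3 lists the highest number was 13, beside 26 in Hnrnpl.

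In satellite cells the hnRNP genes had few peaks. On the RNA strand, B1 listed 0 peaks with T1 and 1 with T2, and B2 listed 4 with T1 and 15 with T2. As shares of each library's peaks in protein-coding genes these were 0% and 0.0334% for B1, and 0.143% and 0.215% for B2. The same shares in C2C12 were 0.190% and 0.200%. The B2 shares lay nearer to these than the B1 shares did, but they rest on few peaks and on other genes. Hnrnpu gave 9 of the 15 peaks of B2 T2, while Hnrnpl gave 35 of 80 and 38 of 93 in C2C12. The 20 ASC48 peaks fell in 6 of the 10 genes, beside 25% of all protein-coding genes with an ASC48 peak. By region, 13 were in coding exons, 5 in 5' UTRs, 2 in introns and 0 in 3' UTRs. Hnrnpa1, Hnrnpc, Hnrnpd and Rbmx had none on the RNA strand.

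**Figure D4:**
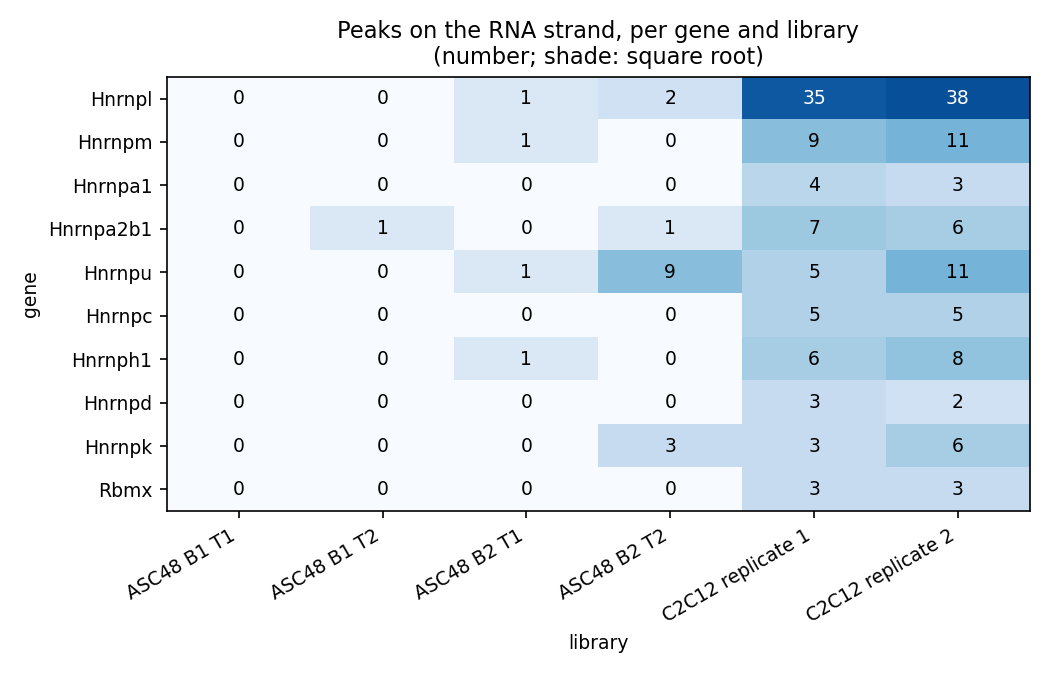
Number of peaks on the RNA strand in each of the 10 hnRNP genes (vertical axis) and the 6 libraries (horizontal axis), written in each cell and shaded by its square root. The 2 C2C12 libraries have peaks in every gene, and the ASC48 peaks are mostly those of B2 T2, 9 of them in Hnrnpu.

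None of the 20 ASC48 peaks was found again in the technical partner of its library, and 8 of them had 4 reads per bin, the lowest height listed in B2 T2. ASC shared peaks, those found in both technical replicates of B1 and of B2, numbered 2443 over the genome. Of the 10 hnRNP genes, 0 held one (upper limit of the interval 30.8%), beside 2.46% of protein-coding genes. A C2C12 peak lay at the same place for 3 of the 20 ASC48 peaks, in the 5' UTRs of Hnrnpa2b1, Hnrnpk and Hnrnpu. Hnrnpl had 1 ASC48 peak in B2 T1 and 2 in B2 T2, the latter in coding exons 7 and 10 with 4 reads per bin each.

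Hnrnpu was the gene with the most ASC48 peaks. Its first exon (chr1:180267084-180267928, 845 nt), which holds the 5' UTR and the start of the coding sequence, held 0 peaks in both B1 libraries, 1 peak in B2 T1 and 9 peaks in B2 T2. The 9 peaks had 4 to 12 reads per bin, and 7 of them lay in the coding part. In C2C12 the same exon held 3 peaks in each library, with 1 of replicate 1 shared. The highest of the 9, at chr1:180267761-180267780 with 12 reads per bin, overlapped the shared C2C12 peak in the 5' UTR, and it is shown because it is the place that both cell types had in common.
Hnrnpu 5' UTR, chr1:180267756-180267785, minus strand: ccgccGCCCGGGCCGACCAGCAGCAgccgc
Of the 4147 protein-coding genes with a peak in B2 T2, 44 (Hnrnpu included) had 9 or more, and the median was 1.

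**Figure D5:**
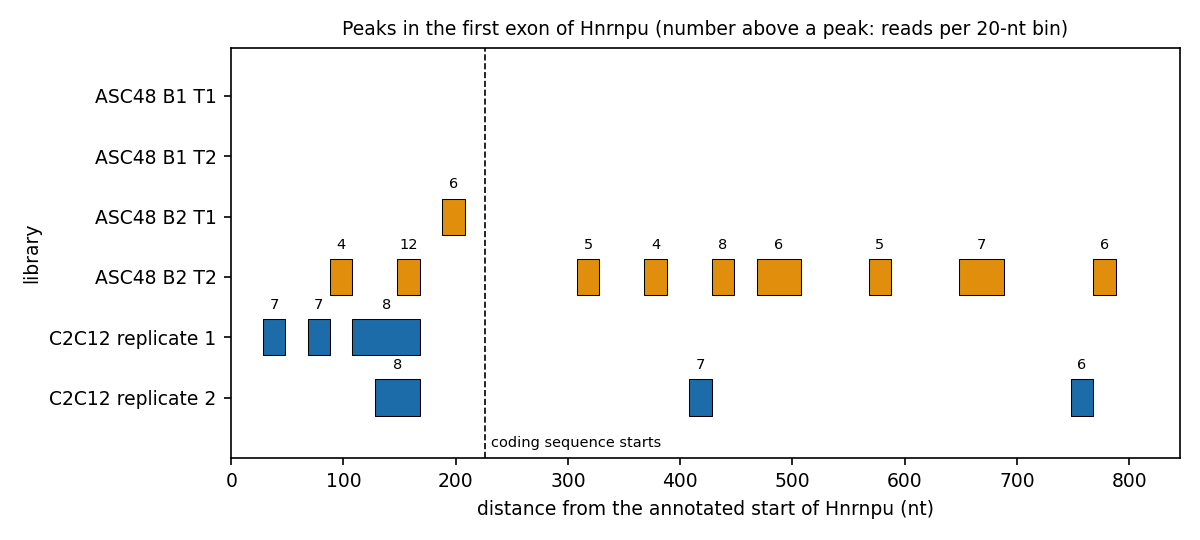
Peaks in the first exon of Hnrnpu in each of the 6 libraries (vertical axis) against distance from the annotated start in nt (horizontal axis), with reads per 20-nt bin written above each peak and the dashed line marking the start of the coding sequence. ASC48 B2 T2 has 9 peaks spread over the exon, both B1 libraries have 0, and the C2C12 libraries have 3 each.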

How the data were processed

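LACE-seq reads of 6 libraries had been trimmed by the authors with Cutadapt 1.15, cleared of pre-rRNA and aligned to mm9 with Bowtie 1.2.3, with up to 2 mismatches and 10 positions per read, so 1 read can add to several copies of a sequence. Peaks were called by the authors in each library with Piranha in 20-nt bins at a p threshold of 0.001, settings they name for ASCs. The deposited signal is the number of reads per bin, averaged over the bins of a wider peak and not normalized, and the deposited p-value is Piranha's, unadjusted. Removal of PCR duplicates is not given in the sources used here.

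Peaks were assigned to genes of GENCODE vM1 on mm9 in Python 3.11.15 with scipy 1.17.1, pysam 0.24.0 and samtools 1.23.1, and plotted with matplotlib 3.10.9. Regions came from protein-coding transcripts, with coding exon placed before 3' UTR, 5' UTR and intron. A peak inside more than 1 gene counted for each. Copies are exact matches of the 20-nt bin on both strands of the genome, the highest over the bins. Checks on made-up data with known answers returned the right answer in 22 of 22 cases. The checks of peak overlap among them used 2000 simulated peaks. The hnRNP genes and the other gene lists were chosen with earlier results of these data known. By rule, each of the 10 genes was described with its shared peak of most reads, except that the site of this peak in Hnrnpa1 is not reported here, and for the further hnRNP genes those with most shared peaks were named; other peaks and genes were named after their values were seen. Depth is unknown, and intervals at the 95% level cover counting error only. The alternatives are in the closing section.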

Additional observations from a re-analysis of the deposited data

Results flagged for a closer look

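In 4 genes 1 ASC48 library lay far from the other 3 in its number of peaks. Hnrnpu had 9 peaks in ASC48 B2 T2 against 0 to 1 in the others, and Hnrnpk had 3 in B2 T2 against 0 in each of the others. Hnrnph1 and Hnrnpm had 1 peak each in B2 T1 against 0 in the others, which is a difference of a single peak. They were looked for in 7 sets of 4 libraries, 6 genes and the total. With 3 libraries at 0 any count in the fourth stands apart by construction, as in Hnrnpk, Hnrnph1 and Hnrnpm, so the rate of about 1 in 20 sets that chance gives for measured values does not hold here, and the 4 libraries are technical pairs. ASC48 B2 T2 also had the longest list and the lowest height listed among the ASC48 libraries. Whether that had a part in these counts was not tested.

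On the strand opposite to the RNA strand, which the counts above leave out, Hnrnpm held a peak with 5 reads per bin at chr17:33821961-33821980 in both ASC48 B1 T1 and B1 T2. It lies in intron 1, 1825 nt from the gene's start. Neither B2 library nor a C2C12 library listed a peak there, and C2C12 replicate 2 had 1 other peak on that strand, 24265 nt from the start, with 6 reads per bin.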

How the results depend on the processing

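The number of C2C12 shared peaks in the hnRNP genes, 46, followed the limits on height. It was 15 at p of at most 0.0001 in both libraries, 8 at 0.00001 and 9 with at least 10 reads per bin in both. Single libraries gave 80 (without replicate 2) and 93 (without replicate 1). With sequences that occur once in the genome it was 35, and peaks within 20 nt of each other gave 53. Leaving out Hnrnpl, which was chosen after seeing the data, gave 20 peaks, with 30% in introns and 45.0% in coding exons. The intronic share of 63.0% fell to 23.9% when regions were taken from all transcripts, since exons of retained-intron and decay transcripts then counted as exons. Without replicate 1 it was 53.8% and without replicate 2 it was 55%, and the coding share was 32.3% and 23.8%. The other alternatives for these shares lay within the intervals given. The 20 ASC48 peaks became 8 at p of at most 0.0001 and 8 with at least 6 reads per bin, and they were 1 without ASC48 replicate 2 and 19 without replicate 1. For single genes 80 of 129 values lay within 1.5 times of the reported count, 32 were lower and 17 higher. Most of the 80 came from alternatives that changed no count, such as an overlap of at least 10 nt or either strand. Leaving out Hnrnpl could not change the count of another gene. Under the limits on p and height, and in single libraries, the counts of most genes lay further away. Hnrnpl had the most peaks of the 10 genes in 12 of 12 alternatives, with 6 to 38. No paired analysis was possible because no result comes from a test between groups.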
